A study of Mus musculus with 7 samples.

Results

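The PFC transcriptomes of mice that overexpressed either allele of the lncRNA PAXIP1-AS1 were compared with those of control mice, which asks what both alleles share. Members were chosen by position alone: a gene was counted when all 4 overexpression libraries lay above, or all 4 lay below, every one of the 3 control libraries. Of 17254 genes with enough counts for testing, 1441 (8.35%) met this rule, with 749 above and 692 below. Among the members with the smallest p were short transcripts of the mitochondrial genome and the activity-regulated genes Npas4, which was lower with both alleles, and Sik1, which was higher with both. Genes of blood vessels and glucocorticoid targets were also members. No gene passed the adjusted threshold in the main test, so the differences below are described by their size, their error and the separation of the libraries.

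The series holds 7 libraries from PFC tissue of female C57BL/6 wild-type mice, and all 7 were used. Recombinant AAV was injected stereotaxically into both sides of the PFC. Ref mice (2 libraries) received the full-length human PAXIP1-AS1 cDNA with the reference C allele, Alt mice (2 libraries) received the same cDNA with the alternative G allele, and Ctr mice (3 libraries) received the empty vector. Every vector, that of Ctr included, carried EGFP under the human synapsin promoter, which is active in neurons, whereas the RNA came from whole tissue with all of its cell types. The age of the mice at sequencing and the number of mice per library are not given in the sources used here, so p-values measure only the spread between these samples, which may be technical. The lncRNA is a human transcript and the table lists mouse genes, so the level reached by the transgene was not analysed here and the labels were not checked against it.

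A lncRNA is a transcript without a long open reading frame, and many lncRNAs act in the nucleus on the transcription of other genes. In cortical neurons, synaptic activity raises calcium and cAMP, and the transcription factor CREB, bound to cAMP response elements (CREs), then switches on immediate early genes within minutes. Adult cortex also contains astrocytes, oligodendrocytes and their precursors, microglia and vessel cells, and a bulk library cannot tell fewer cells of a type from less RNA per cell.

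The total count per library ranged from 16655697 in Alt replicate 1 to 20750857 in Ctr replicate 3. Levels are given as CPM, the read counts scaled to the library size after TMM normalization, and differences as the mean of Ref and Alt minus Ctr on the log2 scale with the standard error (SE). Alt replicate 1 stood apart from the rest. It was the highest of the 7 libraries in 27.4% of the genes tested and the lowest in 31.7%, and the chi-square per degree of freedom between the Alt libraries was 62.9, against 19.7 to 26.7 between other libraries of one group. Single reads were also spread unevenly: genes with exactly 1 read numbered 310 to 472 in Ctr replicates 1 and 2 and both Alt libraries, and 1015 to 1370 in Ctr replicate 3 and both Ref libraries. At exactly 8 reads the libraries had 258 to 320 genes each. Both Ref libraries and both Alt libraries thus lay on opposite sides of this division of single reads, and its part in the differences between the alleles and in genes with few reads was not tested. Markers of glutamatergic neurons summed to 5483 to 7183 CPM in every library, while those of choroid plexus summed to 4.18 to 7.62 CPM and its defining gene Ttr had at most 4 reads, with 0 in 4 libraries.

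All 4 overexpression libraries lay above Ctr in 4.34% of the genes tested and below Ctr in 4.01%. The median difference was 0.55 over the 749 higher genes and -0.42 over the 692 lower genes. Among the higher genes the median was 0.45 for Ref against Ctr and 0.63 for Alt against Ctr, and Alt lay further from Ctr than Ref in 574 of them (76.6%). Among the lower genes the medians were -0.31 and -0.54, and Alt lay further in 561 (81.1%). The test of Alt against Ref itself gave an unadjusted p under 0.05 for 85 of the 1441 genes, beside 2680 of all 17254 genes tested (15.5%). Among genes that met the rule with 6 libraries, this count was 106 without Ctr replicate 1, where 1061 genes lay above and 1044 below Ctr. It was 191 without Ctr replicate 2 (1418 above and 1326 below) and 274 without Ctr replicate 3 (1654 above and 1617 below). The share over all genes was not computed for these fits. The rule itself puts both alleles on one side of Ctr, so these shares describe the members and test nothing. A gap of at least 0.25 on the log2 scale between the nearest libraries remained in 148 higher and 81 lower genes.

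The edgeR test of both alleles against Ctr gave an unadjusted p under 0.05 for 1736 genes (10.1%), of which 938 were higher (5.44%) and 798 lower (4.63%). After Benjamini-Hochberg adjustment edgeR called 0 genes, with a smallest adjusted p of 0.396, whereas DESeq2 called 34 genes on the same counts, with 31 higher and 3 lower. Of those 34, 33 had non-overlapping libraries. Of the 1441 members, 435 higher and 321 lower genes had an unadjusted p under 0.05 in edgeR. Unadjusted p-values below are from edgeR, and every adjusted edgeR p of both alleles against Ctr is at or above 0.396. Without Alt replicate 1 the unadjusted count was 1422, with 684 higher and 738 lower, and 1141 genes (6.17%) lay above and 1036 (5.61%) below Ctr, where 1 library fewer has to separate. The unadjusted count was 691 without Ctr replicate 1, 786 without Ref replicate 2 and 4534 without Alt replicate 2, where Alt rests on its replicate 1. With scaling by total counts alone, 550 genes were higher and 1336 lower.

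**Figure D1:**
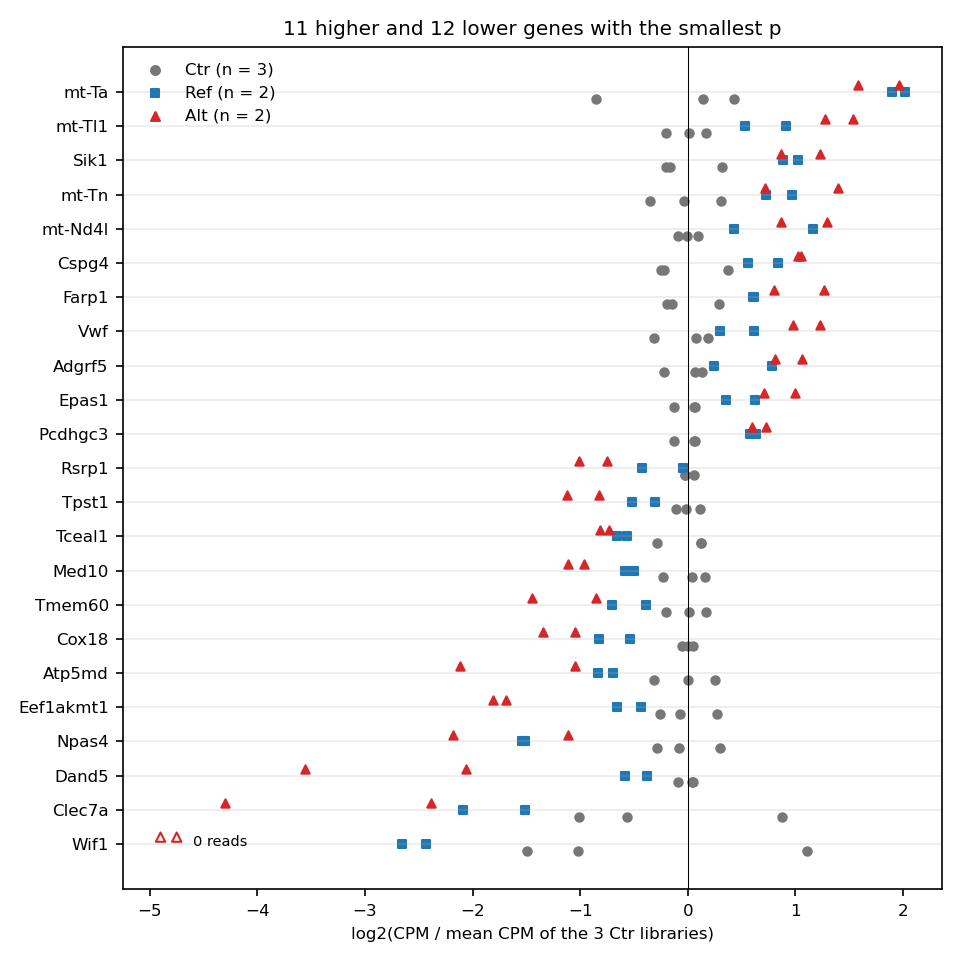
Level of each library relative to the mean of the Ctr libraries (x axis, log2 of the CPM ratio) for 11 higher and 12 lower genes with the smallest p among the members. Circles are Ctr (n = 3), squares Ref (n = 2) and triangles Alt (n = 2), and open triangles mark Wif1, which had 0 reads in both Alt libraries; in each row the coloured symbols lie on one side of all grey circles.

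Members were longer transcripts when higher and shorter ones when lower. The median gene length was 6082 bases over the higher genes and 3391 over the lower genes, beside 4051 over all genes tested. From the shortest to the longest decile of genes, the share above Ctr went from 2.26% to 9.50%, while the share below went from 4.17% to 1.39%. With a per-library length correction, 658 genes lay above (3.81%) and 781 below (4.53%). Of the original members, 507 higher (67.7%) and 514 lower genes (74.3%) stayed on their side. The median difference from Ctr went from -0.32 in the shortest decile to 0.35 in the longest for Alt. For Ref it went from 0.002 to 0.034, so the trend with length lay mainly in Alt. Gene length thus moves with the direction of the difference, and its part in any one gene was not tested beyond this correction. The corrected value is given beside each described gene whose groups overlapped after the correction.

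**Figure D2:**
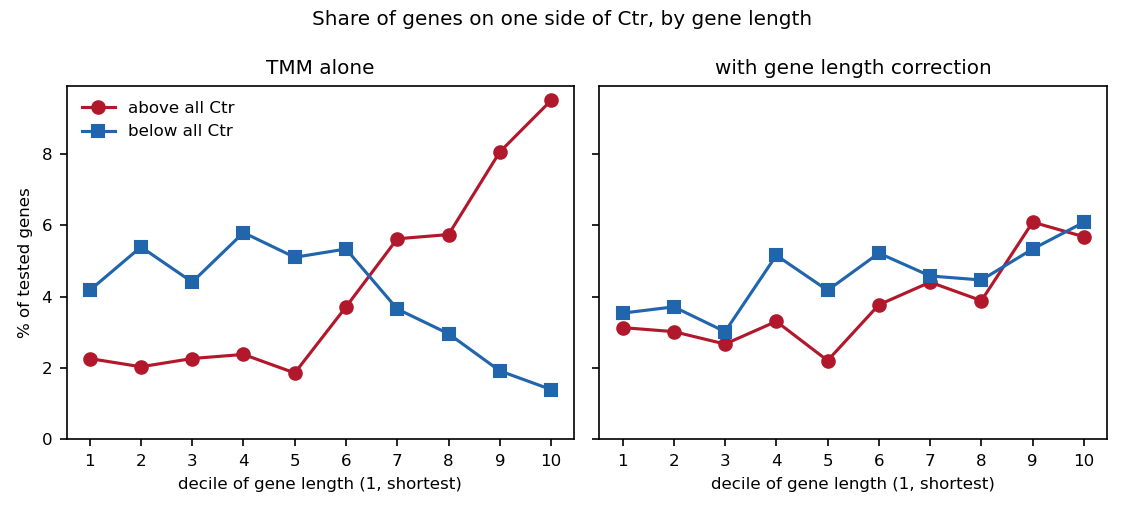
Share of tested genes with all 4 overexpression libraries above (circles) or below (squares) all Ctr libraries (y axis, %), by deciles of gene length from shortest to longest (x axis). Without the correction (left) the share above Ctr rises to 9.50% in the longest decile and the share below falls to 1.39%; with it (right) the longest decile has 5.68% above and 6.08% below.

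Among immediate early genes, the most separated pair lay on opposite sides of Ctr. Npas4 encodes a neuronal transcription factor that is induced almost exclusively by depolarization and calcium entry. The gene (ENSMUSG00000045903.10) lies on the minus strand of chromosome 19 from 5034383 to 5040344 as the table lists it, in a build that the sources do not name for this table. Its level was 30.9, 20.6 and 23.7 CPM in Ctr, 8.61 and 8.79 in Ref and 5.53 and 11.6 in Alt. The highest overexpression library was thus well below the lowest Ctr library. The difference was -1.54 ± 0.25 (SE), or 0.345 times Ctr. It was -1.53 for Ref and -1.55 for Alt, and lay between -1.86 and -1.33 when each library was left out in turn. DESeq2 gave an adjusted p of 0.000124.

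Sik1 is itself induced by CREB and encodes a kinase that restrains the CREB coactivators of the CRTC family. Its level was 21.3, 14.9 and 15.2 CPM in Ctr, 34.8 and 31.5 in Ref and 31.2 and 40.2 in Alt, so that no library of either allele came near Ctr. The difference was 1.01 ± 0.19, or 2.01-fold, with an adjusted DESeq2 p of 0.00207. Klf4, a zinc finger transcription factor, was the other immediate early gene above Ctr. It was measured at 16.6, 9.94 and 10.6 CPM in Ctr, 28.3 and 21.7 in Ref and 17.3 and 33.7 in Alt. The groups were separated by less than 1 CPM, with Alt replicate 1 nearest to Ctr. The difference was 1.03 ± 0.27, with an adjusted DESeq2 p of 0.0521. Alt minus Ref was -0.02 ± 0.34 for Npas4, 0.11 ± 0.24 for Sik1 and 0.03 ± 0.34 for Klf4, each smaller than its SE. For every named gene, the adjusted edgeR p of Alt against Ref was 0.229 or more.

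RefSeq (GRCm38.p6) gave the 250 bases before the start of Npas4 (chr19:4989972-4990221, minus strand) and Klf4 (chr4:55532476-55532725, minus strand), which are shown because they are the members of this list with a promoter in the table. Capitals mark the CRE half-site TGACG on either strand, 5′ to 3′ along the gene.
Npas4: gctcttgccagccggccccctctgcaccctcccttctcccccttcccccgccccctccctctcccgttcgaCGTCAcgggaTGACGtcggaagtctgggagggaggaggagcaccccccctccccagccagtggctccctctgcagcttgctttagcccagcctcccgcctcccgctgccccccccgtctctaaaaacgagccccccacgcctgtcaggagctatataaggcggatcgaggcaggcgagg
Klf4: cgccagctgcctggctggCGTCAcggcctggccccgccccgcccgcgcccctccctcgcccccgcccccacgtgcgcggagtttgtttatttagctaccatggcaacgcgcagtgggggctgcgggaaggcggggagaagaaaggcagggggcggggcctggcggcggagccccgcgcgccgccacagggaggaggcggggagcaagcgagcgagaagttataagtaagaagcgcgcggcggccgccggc
The Npas4 window holds 2 half-sites and the Klf4 window holds 1, and neither holds the full site TGACGTCA. At least 1 half-site was found in 17.8% of all 32851 promoters of the table, in 22.1% of 639 promoters of the higher genes, in 28.9% of 650 promoters of the lower genes and in 24.5% of those of tested genes that overlapped. The motif therefore occurs in promoters of both directions, and a match is a description of the letters alone.

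Of 27 immediate early genes tested, 2 lay above Ctr and 1 below, beside 4.34% and 4.01% of all genes. Unadjusted p-values under 0.05 were found for 2 higher and 5 lower genes, beside 5.44% and 4.63% of all genes, and the median difference was -0.18. Without Alt replicate 1 the median was -0.08, and 4 genes lay above Ctr and 1 below, beside 6.17% and 5.61% of all genes. Besides Npas4, the genes lower at an unadjusted p under 0.05 with all libraries were Arc, Egr1, Bdnf and Nr4a2, all of which overlapped with Ctr. Egr1, a zinc finger factor, was at 556, 435 and 395 CPM in Ctr, 303 and 299 in Ref and 218 and 408 in Alt, a difference of -0.59 ± 0.20. Bdnf, a neurotrophin, was at 47.1, 51.7 and 34.5 CPM in Ctr and between 27.9 and 37.8 in the other 4 libraries, with Alt replicate 2 above the lowest Ctr library. Arc, a regulator of AMPA receptor endocytosis, was lower in Alt (-1.36) and differed little in Ref (-0.07).

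The precursor of miR-132, which is transcribed from a CREB-regulated locus, was among the lower members by size. The RefSeq hairpin (GRCm38.p6, chr11:75173682-75173747, plus strand) is shown because it is the feature that was counted, with both mature arms in capitals.
Mir132: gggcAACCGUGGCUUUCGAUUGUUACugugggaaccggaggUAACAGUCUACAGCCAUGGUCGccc
It had 34, 41 and 51 reads in Ctr, 19 and 17 in Ref and 10 and 12 in Alt, so every overexpression library had fewer reads. The difference was -1.39 ± 0.59, and its unadjusted p was under 0.05 with all libraries but not when any 1 of 5 of them was left out. These are reads of a library of long RNA over the hairpin, and they do not measure the mature miRNA.

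Glucocorticoid targets were higher where they separated. Of 17 tested, 3 lay above Ctr (17.6%, beside 4.34% of all genes) and 0 below, and 4 had an unadjusted p under 0.05, all higher, beside 5.44% of all genes. Their differences were positive for 11 and negative for 6. Zbtb16, a zinc finger repressor, was at 22.3, 23.6 and 26.0 CPM in Ctr, 44.1 and 40.6 in Ref and 44.7 and 31.4 in Alt. Every overexpression library exceeded Ctr, and the difference was 0.74 ± 0.17, with an adjusted DESeq2 p of 0.0308. Fkbp5, a co-chaperone that lowers the hormone affinity of the glucocorticoid receptor, was at 23.5, 20.7 and 17.5 CPM in Ctr, 39.8 and 35.4 in Ref and 24.8 and 27.8 in Alt. Here Ref lay further from Ctr (0.87) than Alt (0.36), with Alt minus Ref at -0.51 ± 0.21, and the libraries overlapped after the length correction, where the difference was 0.47. Hif3a, an inhibitory subunit of the hypoxia-inducible factors, was at 6.55, 6.498 and 4.04 CPM in Ctr, 13.1 and 12.1 in Ref and 17.7 and 7.14 in Alt. The libraries did not overlap, and the difference was 1.13 ± 0.32, or 0.73 without Alt replicate 1. Map3k6, a stress-activated kinase, was the other gene with an unadjusted p under 0.05, with 4.16 CPM in Alt replicate 1 against at most 4.57 in Ctr. The median of the list was 0.06, with 0.40 for Ref and -0.03 for Alt, and it was 0.20 without Alt replicate 1. The Alt libraries differed, with medians relative to Ctr of -0.37 (replicate 1) and 0.03 (replicate 2).

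**Figure D3:**
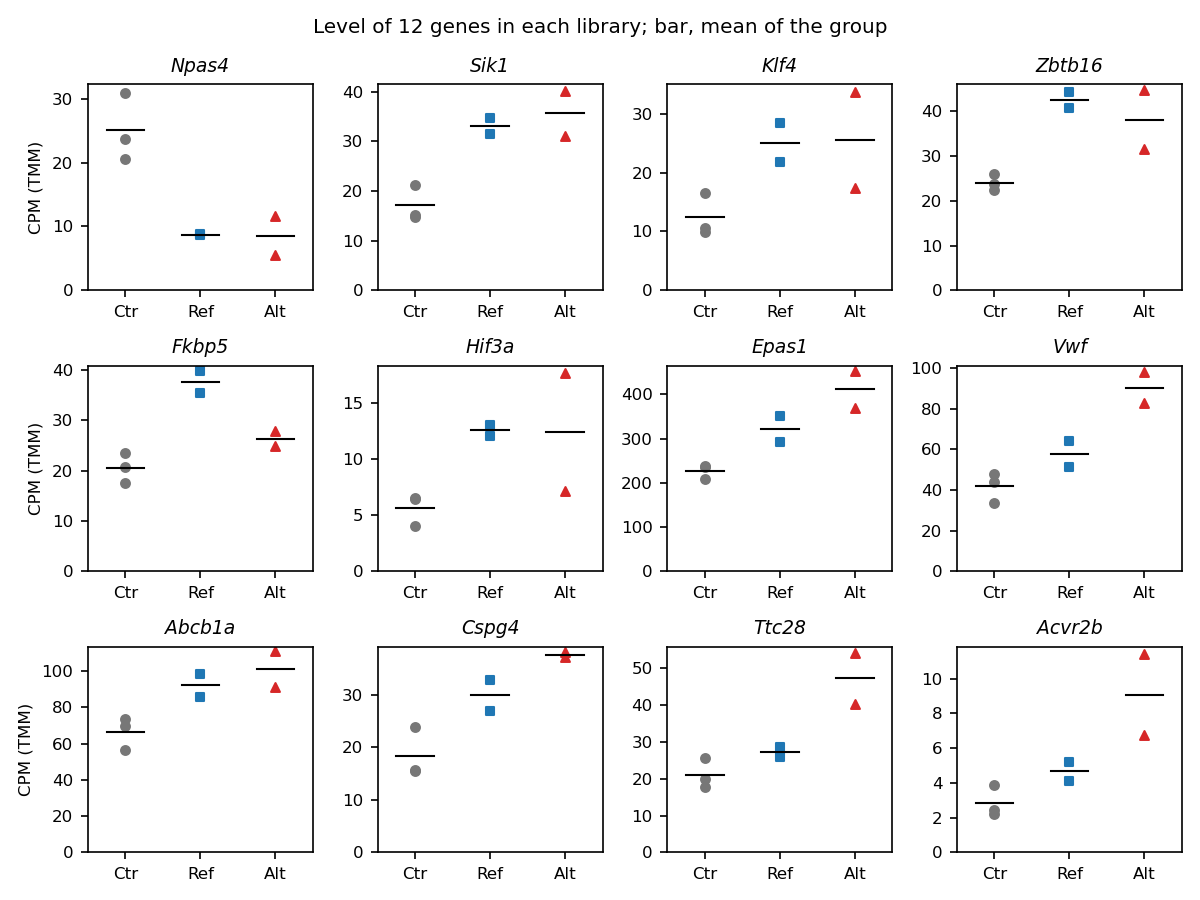
CPM of 12 genes (y axes, each starting at 0) in the single libraries of Ctr, Ref and Alt, with a bar at the mean of each group. In each panel the Ref and Alt points lie on one side of all Ctr points, with Npas4 below and the other 11 above.

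Several genes known from vessel walls were higher with both alleles. Of those described here, Epas1, Vwf and Adgrf5 were named for their small p and are not on the list of endothelial and mural markers, whereas Abcb1a and Flt1 are. Epas1 encodes HIF-2 alpha, an oxygen-regulated transcription factor that is abundant in endothelium. It was at 208, 237 and 236 CPM in Ctr, 291 and 351 in Ref and 453 and 370 in Alt, a difference of 0.68 ± 0.13 with an adjusted DESeq2 p of 0.00207. Vwf, the von Willebrand factor secreted by endothelial cells, was at 33.8, 44.2 and 47.9 CPM in Ctr, 51.6 and 64.3 in Ref and 98.1 and 82.8 in Alt. Its difference of 0.79 ± 0.16 was made up of 0.47 in Ref and 1.11 in Alt, which differed by 0.64 ± 0.21. Adgrf5, an adhesion G protein-coupled receptor of endothelium, was at 63.4, 77.8 and 81.1 CPM in Ctr and between 87.6 and 155 in the other 4 libraries (0.74 ± 0.16). Abcb1a, the P-glycoprotein pump of the blood-brain barrier, was at 56.4, 73.6 and 70.0 CPM in Ctr and between 85.7 and 111 in the others (0.53 ± 0.14). Flt1, a VEGF receptor, was at 106, 140 and 136 CPM in Ctr and between 150 and 192 in the others (0.48 ± 0.14), and overlapped after the length correction (0.27).

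Levels of several cell markers lay on the same side as these genes. Of 19 endothelial and mural markers tested, 2 lay above Ctr (10.5%, beside 4.34% of all genes), 0 below, 15 had a positive and 4 a negative difference, and the median was 0.21. Their summed level was 943 to 1076 CPM in Ctr and 1129 to 1309 CPM in the overexpression libraries. Summed astrocyte markers were at 7346 to 8894 CPM in Ctr and 9719 to 12811 in the others, and those of oligodendrocyte precursors at 242 to 316 and 337 to 392. The endothelial and precursor sums also separated without the member of highest level, Rgs5 or Pdgfra, an alternative chosen after seeing the data. The astrocyte sum did not: Slc1a2 made up 47.4% to 74.4% of it, and the remaining markers summed to 3721 to 4067 CPM in Ctr, 4743 to 4825 in Ref and 3283 to 4032 in Alt. Of 16 astrocyte markers, 2 lay above Ctr, 11 had a positive and 5 a negative difference, and the median was 0.13, with 0.31 in Ref and -0.07 in Alt. The glutamatergic sum, which exceeded Ctr by 10.7 CPM at the nearest libraries, likewise overlapped without its most abundant member Camk2a. Without Alt replicate 1, 6 of 16 astrocyte and 5 of 19 endothelial markers lay above Ctr, beside 6.17% of all genes in that setting. Myelin markers did not follow the alleles together, with 3182 to 4383 CPM in Ctr, 5181 to 6339 in Ref and 3069 to 3833 in Alt. The part of cell composition in the results on vessel, astrocyte and precursor genes was not tested.

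**Figure D4:**
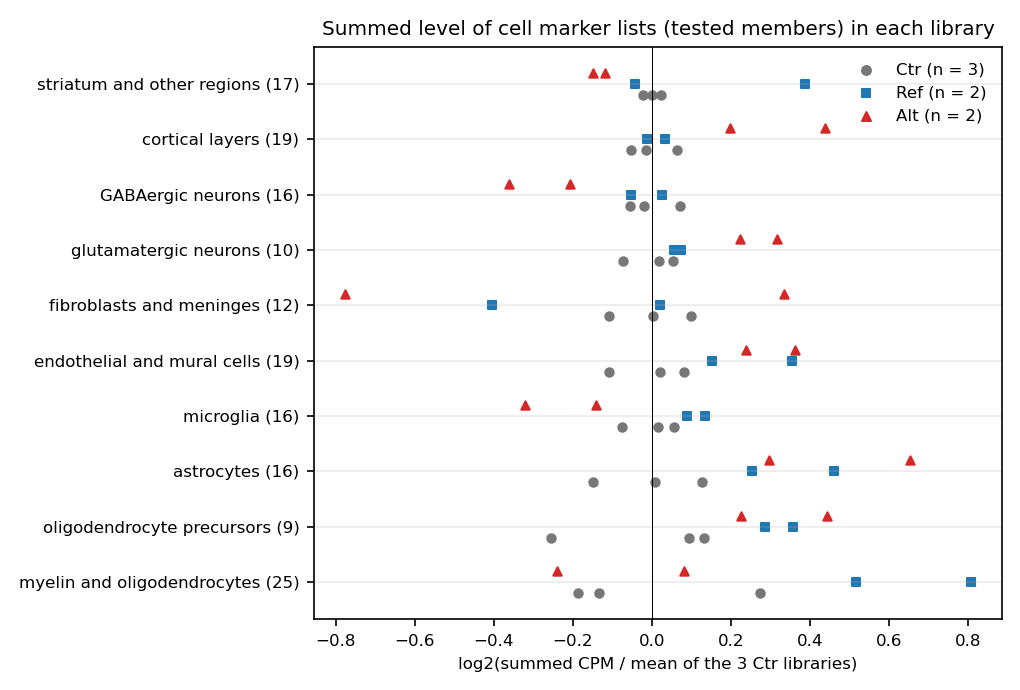
Summed CPM of the tested markers of each cell type in each library, relative to the mean of the Ctr libraries (x axis, log2 ratio). Circles are Ctr (n = 3), squares Ref (n = 2) and triangles Alt (n = 2), with the number of markers in brackets; endothelial, astrocyte and oligodendrocyte precursor sums, and narrowly the glutamatergic sum, lie above all Ctr libraries for both alleles, while the myelin sums of Ref and Alt lie apart.

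Among glial genes, Slc1a2, the main astrocytic glutamate transporter, had all 4 libraries above Ctr (0.64 ± 0.18, or 0.41 after the length correction). Kcnj10, the astrocytic inward rectifier Kir4.1, was at 213, 270 and 265 CPM in Ctr and between 276 and 401 in the others. Its difference was 0.45 ± 0.16, and its unadjusted p was 0.05 or more without Ctr replicate 1 or Ref replicate 2. Cspg4, the NG2 proteoglycan of oligodendrocyte precursors and pericytes, was at 15.5, 15.8 and 23.8 CPM in Ctr, 32.9 and 27.0 in Ref and 38.1 and 37.3 in Alt. The Cspg4 difference was 0.87 ± 0.19, with an adjusted DESeq2 p of 0.0236. Cx3cr1, the fractalkine receptor of microglia, was at 65.2, 65.9 and 80.9 CPM in Ctr and between 81.1 and 94.1 in the others, a gap of less than 1 CPM, while the median over 16 microglial markers was -0.16.

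Channels and receptors of neurons contributed a few members. Of 47 potassium channel genes, 4 lay above Ctr (8.51%, beside 4.34% of all genes) and 1 below (2.13%, beside 4.01%), and 10 higher and 1 lower gene had an unadjusted p under 0.05, beside 5.44% and 4.63%. The member below was Kcnf1, an electrically silent subunit, at 138, 124 and 121 CPM in Ctr and between 89.6 and 117 in the others (-0.35 ± 0.12). The median over the potassium channel genes was 0.13, with -0.01 in Ref and 0.24 in Alt, and it was 0.07 without Alt replicate 1. After the length correction this median was 0.01, with 7 higher and 1 lower gene at an unadjusted p under 0.05. Grin2c, the NMDA receptor subunit GluN2C, was at 53.5, 52.9 and 59.3 CPM in Ctr, 71.0 and 79.0 in Ref and 91.2 and 78.6 in Alt (0.53 ± 0.13). It was the only 1 of 34 glutamate receptor genes above Ctr (2.94%, beside 4.34% of all genes), and none lay below. Scn4b, the beta 4 subunit of sodium channels, was at 41.3, 42.4 and 40.5 CPM in Ctr, 64.2 and 77.6 in Ref and 48.1 and 50.5 in Alt. Ref was the allele further from Ctr for Scn4b (0.78 against 0.25, with Alt minus Ref at -0.52 ± 0.17). Neurod6, a transcription factor of glutamatergic neurons, was at 124, 92.1 and 104 CPM in Ctr and between 53.5 and 82.3 in the others (-0.59 ± 0.17). It was the only 1 of 10 glutamatergic markers below Ctr (10%, beside 4.01% of all genes), and Camk2a was the only 1 above (10%, beside 4.34%). Differences of these markers were positive for 4 and negative for 6, with a median of -0.06.

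Farp1, a guanine nucleotide exchange factor that promotes dendrite growth and synapse formation, was among the most separated genes. It was at 58.4, 60.1 and 81.7 CPM in Ctr, 102 and 101 in Ref and 160 and 116 in Alt, a difference of 0.83 ± 0.16 with an adjusted DESeq2 p of 0.00392. Syn3, a synapsin of synaptic vesicles, was at 8.49, 8.52 and 11.1 CPM in Ctr, 12.5 and 11.7 in Ref and 33.9 and 17.2 in Alt. The Ref libraries exceeded the highest Ctr library by little, and Alt exceeded Ref by 1.07 ± 0.32. Of 26 postsynaptic scaffold genes, 3 lay above Ctr (11.5%, beside 4.34% of all genes) and 1 below (3.85%, near the 4.01% of all genes), and 9 higher and 0 lower genes had an unadjusted p under 0.05, beside 5.44% and 4.63%. Without Alt replicate 1 the higher count was 4. After the length correction 1 scaffold gene lay above and 1 below, and 3 higher and 2 lower genes had an unadjusted p under 0.05.

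Synaptic adhesion genes lay on both sides of Ctr. Of 55 tested, 2 lay above (3.64%, beside 4.34% of all genes), 1 below (1.82%), and 8 higher and 0 lower genes had an unadjusted p under 0.05, beside 5.44% and 4.63%. Without Alt replicate 1 the higher count was 2. After the length correction 1 lay above and 2 below, with 4 higher and 2 lower at an unadjusted p under 0.05. Of 34 cadherins and protocadherins tested, 4 lay above Ctr (11.8%, beside 4.34% of all genes) and 0 below. Celsr1, a large cadherin of planar cell polarity, was at 9.53, 6.84 and 14.0 CPM in Ctr, 20.2 and 18.9 in Ref and 38.4 and 20.2 in Alt (1.24 ± 0.28). Fat1, a giant protocadherin, was at 27.3, 40.5 and 55.6 CPM in Ctr, 57.2 and 75.0 in Ref and 107 and 67.6 in Alt (0.88 ± 0.24). Dchs1, a partner of Fat4 in cell polarity, was at 9.09, 7.63 and 11.98 CPM in Ctr and between 14.3 and 22.9 in the others (0.87 ± 0.24). The classical cadherin Cdh4 was at 22.1, 18.7 and 26.9 CPM in Ctr, 29.4 and 29.9 in Ref and 55.0 and 39.9 in Alt (0.73 ± 0.18), with Alt minus Ref at 0.68 ± 0.23. All 4 kept their separation after the length correction, but the list then had 2 members below Ctr and a median of 0.06, beside 0.16 without it. The uncorrected list median was -0.05 in Ref and 0.40 in Alt, and the joint median was 0.08 without Alt replicate 1. Pcdhgc3, of the clustered gamma protocadherins, was at 28.2, 32.0 and 32.2 CPM in Ctr and between 46.1 and 51.0 in the others (0.64 ± 0.14). The genes of that cluster share their last exons, so the assignment of its reads is uncertain.

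Of 52 genes of the extracellular matrix and of integrins, 9 lay above Ctr (17.3%, beside 4.34% of all genes), 0 below, and 12 higher and 0 lower genes had an unadjusted p under 0.05, beside 5.44% and 4.63% of all genes. Several members were laminins, the chains of basement membranes. Lamb2 was at 34.4, 39.0 and 40.0 CPM in Ctr, 51.9 and 46.0 in Ref and 68.3 and 58.6 in Alt (0.56 ± 0.14). Lama5 was at 8.59, 12.1 and 14.7 CPM in Ctr and between 16.6 and 35.9 in the others, with a difference of 0.94 ± 0.27 that was 0.60 without Alt replicate 1. Lamc1 was at 33.8, 39.7 and 51.4 CPM in Ctr and between 54.0 and 77.6 in the others (0.56 ± 0.18), and overlapped after the length correction (0.44). Of the proteoglycans, Vcan was at 28.1, 40.5 and 34.9 CPM in Ctr and between 42.7 and 65.6 in the others (0.57 ± 0.19), and it too overlapped after the correction (0.33). These are long genes, with a list median of 8299 bases. The correction left 7 members above and 1 below, and moved the list median from 0.22 to 0.11. The summed endothelial markers, given above, moved in the same direction as the laminins.

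**Figure D5:**
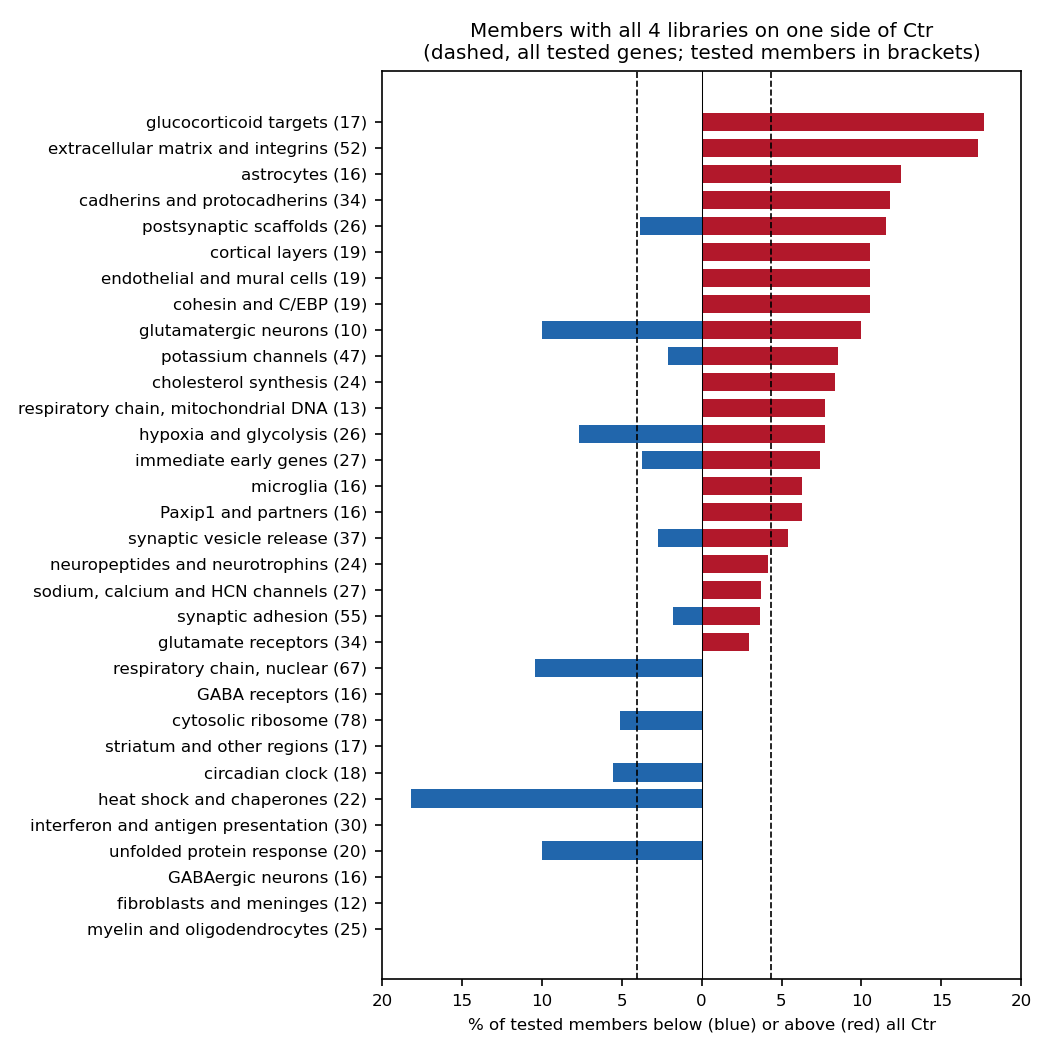
Share of the tested members of each gene list (x axis, %) with all 4 overexpression libraries below all Ctr libraries (bars to the left) or above them (bars to the right), for lists with at least 10 tested members. Dashed lines mark 4.34% above and 4.01% below over all genes tested; glucocorticoid targets (17.6%) and extracellular matrix (17.3%) extend furthest to the right, and chaperones (18.2%) furthest to the left.

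Some short features of the mitochondrial genome separated. Of 18 mitochondrial tRNA genes tested, 4 lay above Ctr (22.2%, beside 4.34% of all genes), 0 below, and 6 had an unadjusted p under 0.05, all higher, beside 5.44% of all genes. A negative difference was found for 9 of the 18. mt-Tl1, a leucine tRNA at positions 2676 to 2750 of the mitochondrial chromosome as the table lists them, had the smallest p of all genes. It was at 23.2, 29.9 and 26.8 CPM in Ctr, 38.5 and 50.1 in Ref and 77.1 and 64.5 in Alt (1.07 ± 0.16). Alt was further from Ctr (1.41) than Ref (0.73), a difference of 0.68 ± 0.21 between the alleles, and DESeq2 gave an adjusted p of 2.21e-05 for both against Ctr. The neighbours on either side did not separate: mt-Rnr2, the large ribosomal RNA, differed by 0.25 ± 0.16 and mt-Nd1 by 0.14 ± 0.17. mt-Ta, an alanine tRNA on the minus strand, was at 4.07, 1.67 and 3.34 CPM in Ctr and between 9.09 and 12.3 in the others (1.87 ± 0.31). mt-Tn, an asparagine tRNA, was at 27.7, 17.6 and 21.9 CPM in Ctr and between 36.9 and 58.9 in the others (0.97 ± 0.21), and overlapped after the length correction (0.80). The libraries were enriched for polyadenylated RNA, so these reads do not measure mature tRNAs.

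Of 13 mRNAs of the mitochondrial genome, 11 had a positive and 2 a negative difference. An unadjusted p under 0.05 was found for 3, all higher, beside 5.44% of all genes. None of the mRNAs lay below Ctr, and 1 lay above (7.69%, beside 4.34% of all genes). This was mt-Nd4l, a complex I subunit, at 28.2, 30.0 and 32.3 CPM in Ctr, 40.6 and 67.5 in Ref and 74.1 and 54.9 in Alt (0.97 ± 0.19). Its reading frame overlaps that of mt-Nd4, which differed by 0.23 ± 0.19. The other mRNAs with an unadjusted p under 0.05 were mt-Nd5 (0.62 ± 0.19) and mt-Atp6 (0.75 ± 0.27), whose libraries overlapped with Ctr. Ref and Alt differed from Ctr by 0.33 and 0.91 for mt-Nd5, and by 1.25 and 0.25 for mt-Atp6. The share of all counts on mitochondrial genes was 12.2% to 14.2% in Ctr and 12.2% to 16.6% in the other libraries, without separation.

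Nuclear genes of the respiratory chain had negative differences, mainly in Alt. This held for all 67 tested, of which 24 had an unadjusted p under 0.05, beside 4.63% of all genes, and 7 lay below Ctr (10.4%, beside 4.01%), with 0 above. The median was -0.43, made up of -0.03 in Ref and -0.82 in Alt, and it was -0.23 without Alt replicate 1. By library, the median relative to Ctr was -1.28 for replicate 1 of Alt and -0.34 for replicate 2. Among its 7 members below Ctr, Ndufv1, a complex I subunit, was at 89.9, 85.6 and 72.6 CPM in Ctr, 71.3 and 68.7 in Ref and 58.5 and 66.6 in Alt (-0.32 ± 0.13, or -0.25 with an unadjusted p of at least 0.05 after the length correction), and Cox7a2, of complex IV, was at 60.3, 47.7 and 49.4 CPM in Ctr and between 28.1 and 46.6 in the others (-0.43 ± 0.15). Outside the list, Atp5md, a small subunit of the ATP synthase, was at 54.3, 45.6 and 36.6 CPM in Ctr, 25.6 and 28.1 in Ref and 10.5 and 22.0 in Alt. The Atp5md difference was -1.12 ± 0.23 with an adjusted DESeq2 p of 0.00557, and it was -0.76 in Ref. Cox18, an assembly factor of cytochrome c oxidase, was at 11.1, 10.7 and 11.5 CPM in Ctr, 6.24 and 7.65 in Ref and 4.36 and 5.35 in Alt (-0.93 ± 0.22).

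Of 78 ribosomal protein genes, 18 were lower at an unadjusted p under 0.05, beside 4.63% of all genes, 0 higher, and 4 lay below Ctr (5.13%, near the 4.01% of all genes). Their medians were 0.01 in Ref and -0.67 in Alt, and leaving out Alt replicate 1 moved the joint median from -0.29 to -0.15 and the lower count to 10. Chaperones were lower where they separated. Of 22 tested, 4 lay below Ctr (18.2%, beside 4.01% of all genes), 0 above, and their summed level was 5748 to 6298 CPM in Ctr, 5213 to 5309 in Ref and 4852 to 5365 in Alt. Dnaja1, an Hsp40 co-chaperone, was at 250, 228 and 238 CPM in Ctr, 208 and 209 in Ref and 167 and 186 in Alt (-0.32 ± 0.12). The other members were Hspa8, Hspa5 and Hsph1, with differences of -0.24, -0.28 and -0.21, none of them with an unadjusted p under 0.05. After the length correction these were -0.23, -0.26 and -0.29, all with an unadjusted p under 0.05, and 6 chaperones lay below Ctr. The count of chaperones lower at an unadjusted p under 0.05 was 3, beside 4.63% of all genes, with 6 after the correction and 1 without Alt replicate 1. Ldha, the lactate dehydrogenase A subunit, was at 295, 224 and 234 CPM in Ctr, 208 and 178 in Ref and 116 and 194 in Alt (-0.54 ± 0.18).

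Of the genes that the study singled out, Ttc28 and Acvr2b were members. Ttc28, a tetratricopeptide repeat protein, was at 19.96, 17.6 and 25.7 CPM in Ctr, 28.6 and 26.0 in Ref and 54.0 and 40.4 in Alt. The Ref libraries lay within 3 CPM of the highest Ctr library, and Alt minus Ref was 0.79 ± 0.24. The joint difference was 0.77 ± 0.18 with an adjusted DESeq2 p of 0.0448, and the groups overlapped after the length correction (0.56). Acvr2b, an activin receptor, was at 2.43, 2.22 and 3.90 CPM in Ctr, 5.22 and 4.09 in Ref and 11.4 and 6.75 in Alt (1.18 ± 0.33, and 1.22 after the correction). Cntnap3, a contactin-associated adhesion protein, was not a member: it was at 4.42, 2.56 and 3.20 CPM in Ctr, 5.47 and 4.03 in Ref and 7.67 and 8.53 in Alt, with Ref replicate 2 below the highest Ctr library. Its difference was 0.87 ± 0.30, with 0.48 in Ref and 1.25 in Alt. These genes were chosen by the study on these samples, together with human co-expression and case-control data. Their direction here is therefore no independent evidence. The study also reported, by qPCR of PFC tissue and of cell lines, CNTNAP3 mRNA that rose from Ctr through Ref to Alt. It reported the same order for the protein in PFC and HEK293T cells.

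Zgpat, a zinc finger repressor of transcription, overlapped with Ctr: it was at 14.4, 21.8 and 17.3 CPM in Ctr, 13.2 and 11.5 in Ref and 16.6 and 13.4 in Alt (-0.39 ± 0.20). Its unadjusted p was under 0.05 after the length correction (-0.44) and not without it. Its known target Egfr, the epidermal growth factor receptor, was a member at 18.9, 16.5 and 18.02 CPM in Ctr, 24.5 and 25.3 in Ref and 27.9 and 26.4 in Alt. The Egfr difference was 0.54 ± 0.16, with 0.48 in Ref and 0.61 in Alt, and after the length correction (0.36) the libraries overlapped and the unadjusted p was 0.05 or more. Paxip1, the mouse counterpart of the human gene beside the lncRNA, was at 35.6, 40.2 and 50.0 CPM in Ctr and between 43.1 and 48.4 in the others (0.12 ± 0.15). Paxip1 lay inside the range of Ctr in all 4 libraries. Nipbl, the cohesin loader, was at 59.1, 67.9 and 69.1 CPM in Ctr, 72.7 and 82.9 in Ref and 140 and 112 in Alt (0.60 ± 0.14), and Alt exceeded Ref by 0.70 ± 0.18.

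Members with the largest ratios had few reads. Clec7a, the beta-glucan receptor dectin-1 of myeloid cells, was at 2.98, 8.07 and 2.18 CPM in Ctr, 1.55 and 1.03 in Ref and 0.845 and 0.223 in Alt (-2.41 ± 0.59). Wif1, a secreted Wnt inhibitor, had 13, 57 and 10 reads in Ctr, 5 and 4 in Ref and 0 in both Alt libraries. The lncRNA gene A330074K22Rik was at 0.248, 0.197 and 1.30 CPM in Ctr and between 2.06 and 5.72 in the others. Igkv1-117, an immunoglobulin kappa variable segment of antibody-producing cells, rests on Ref replicate 2 with 43.1 CPM, while the other 3 overexpression libraries had 0.193 to 1.63 CPM, and its p was lost without that library. Dand5, a secreted antagonist of Nodal and BMP signaling, was at 5.51, 5.02 and 5.53 CPM in Ctr, 4.11 and 3.57 in Ref and 0.455 and 1.28 in Alt, with Alt minus Ref at -2.12 ± 0.53.

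Of 1444 lncRNA genes of the mouse that were tested, 51 lay above Ctr (3.53%, beside 4.34% of all genes) and 46 below (3.19%, beside 4.01%), and their median difference was -0.03. Of 97 genes chosen by the naming rule, not all of which are described, 81 had an unadjusted p under 0.05, and 49 kept it without each of the 7 libraries in turn. Of the genes described above, Vcan, Ldha and Cox7a2 were at 0.05 or more without Ctr replicate 1, Kcnf1 without Ctr replicate 1 or Ref replicate 2, and Cntnap3 without Ref replicate 1. Dnaja1 was at 0.05 or more when any 1 of 4 libraries was left out, and Ndufv1 and Cx3cr1 when any 1 of 5 was. None of the 81 changed direction under any alternative that was run. All of the 81 except Cntnap3 met the rule of position, so leaving out a library could hardly reverse them. Many were also named for a small p, so these counts describe the choice of genes and are no test.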

How the data were processed

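Poly(A)-enriched RNA of PFC tissue was sequenced for 3 Ctr, 2 Ref and 2 Alt samples, and the sample labels give each group. For 55416 genes the authors deposited raw read counts per library, with TPM and FPKM values derived by the authors from the same counts and the gene length. The submitters' processing notes name STAR, featureCounts and the build hg19, which is a human build, whereas the table lists mouse genes. Versions, annotation and the strand setting are not given in the sources used here. Gene starts fell within 1000 bases of GRCm38.p6 for 2.90% of 16152 nuclear genes compared, so coordinates of the table and of RefSeq were kept apart. Columns of the authors' own comparisons were not used.

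The main test was made in edgeR 4.0.16 under R 4.3.3 (filterByExpr, TMM, glmQLFit, glmQLFTest), with group means and the contrast of the mean of Ref and Alt against Ctr. All 7 libraries shared 1 estimate of the spread, and the Benjamini-Hochberg adjustment ran over all 17254 genes. DESeq2 1.42.0 and limma 3.58.1 served the alternatives. A gene was on one side of Ctr by strict inequality of TMM-scaled CPM. The length correction subtracted a loess curve of span 0.3 per library through offsets. The scripts were tested on simulated data with 200 changed genes. The study's own test used ordered groups, a question that is not treated here.

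Genes were named by a rule: the 12 higher and 12 lower members with the smallest p, the 8 higher and 8 lower members whose smaller allele difference was largest at p under 0.05 and a mean CPM of at least 1, up to 4 members per gene list by p, and Cntnap3, Acvr2b, Ttc28, Zgpat and Paxip1. Of these, 2 genes are not reported here. The members, the 35 lists and the rule were chosen with earlier results of these data known. Promoters were matched for 71 of 97 named genes by symbol. The motif GGAGGAGA, GGAGGAAA, GGAGAAGA or GGAGAAAA, searched for the repressor ZGPAT on both strands, occurred in 9.92% of all promoters, 9.86% of those of higher genes and 8.46% of those of lower genes. Alternatives covered the test, scaling, low-count filter, design, replicate block, length, robust fitting, gene type, the deposited TPM values and each library left out in turn. The depth of 16655697 to 20750857 counts per library limits the genes with few reads.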

Additional observations from a re-analysis of the deposited data

Results flagged for a closer look

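Over the 4 overexpression libraries of each named gene, the gap of the most distant library was compared with the range on the scale of log2 CPM with a prior count of 2, and set against Dixon's critical value at 95%. All 5 reported genes past it had Alt replicate 1 as the distant library. Celsr1 was highest there (0.907), and Cox7c (0.915), Ndufc1 (0.91), Hspa8 (0.86) and Arntl (0.832) were lowest there. Chance alone flags about 1 in 20 groups, and 97 genes were looked at. Celsr1 was at 38.4 CPM in Alt replicate 1 against 18.9 to 20.2 in the other 3 overexpression libraries, and without that library its difference from Ctr was 0.97. Cox7c was at 15.7 CPM against 36.7 to 39.7, and its difference was -0.29 without Alt replicate 1, compared with -0.52 with it. Arntl, a core factor of the circadian clock, was at 8.98 CPM against 15.2 to 16.8, with -0.31 and -0.49. Ndufc1 overlapped with Ctr after the length correction (-0.43, with an unadjusted p of at least 0.05). For Cox7c and Arntl the unadjusted p was 0.05 or more when any 1 of 6 libraries was left out.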

How the results depend on the processing

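Of 1638 recomputed values for the named genes, 1481 kept their direction and side of the threshold, 129 lost an unadjusted p under 0.05, 27 gained it and 1 reversed: Paxip1, from 0.12 to -0.030 with the length correction. Leaving out each library in turn gave 691 to 4534 genes at an unadjusted p under 0.05 (377 to 1801 higher, 314 to 2733 lower), 0 to 1390 at an adjusted p under 0.05, 1053 to 1654 above Ctr, 1036 to 1617 below Ctr and 39 to 424 members that differed between Alt and Ref. The highest count of calls was without Alt replicate 2, where Alt replicate 1 stands alone for its group and is assumed to vary like the others, and the lowest unadjusted count was without Ctr replicate 1. With 6 libraries fewer positions have to agree, which by construction raises the counts on one side. Members can likewise hardly change direction when a library is left out. Scaling by total counts alone gave 550 higher and 1336 lower genes (29.2% higher, against 54.0%), a shift of the median of all genes by -0.08, with 515 genes above and 1042 below Ctr. The length correction gave 675 higher and 946 lower (41.6% higher). With 2 groups of 4 and 3 libraries, 1067 genes had an unadjusted p under 0.05, 732 higher and 335 lower (68.6% higher). Without the low-count filter 1226 were lower and 267 passed the adjusted threshold, and DESeq2 passed 34. The deposited TPM values put 441 genes above and 919 below Ctr, and a gap of at least 0.25 left 148 above and 81 below. Without the most abundant member of each list, chosen after seeing the data, the gap between the lowest overexpression sum and the highest Ctr sum went from 824 to -784 CPM for astrocyte and from 10.7 to -421 CPM for glutamatergic markers. The cause of these changes was not tested.

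The replicate numbers were used as a replicate block, which gave 699 higher and 462 lower genes. Deviations of same-numbered libraries correlated between -0.0984 and 0.0702. With 2 libraries in Ref and 2 in Alt, the deviations within each group mirror each other. These correlations therefore cannot show whether same-numbered libraries share more than a number. Depth limits genes with few reads, such as Wif1 and Clec7a.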
